A study of Rattus norvegicus with 16 samples.

Results

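The RNA of rat epididymal fat was read for 8 genes of red blood cells and platelets, by 12 microarray probes. The genes were Hba-a1, Hbb and Hbb-b1, which encode the alpha and beta chains of haemoglobin, Ahsp, Alas2, Epb42 and Slc4a1, whose mRNAs young red cells still hold, and Pf4, a chemokine best known from platelet granules. They were chosen by name, with earlier results of these data known. Every probe whose transcript accession maps to one of these 8 symbols is shown. The 12 probes stand among 30367 probes on the array, of which 18005 map to a symbol, for 15168 genes in all.

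The tissue was epididymal white adipose tissue, the visceral fat pad along the epididymis, of male rats aged 30 days that fed freely until they were killed. The HFT animals came from dams on a high-fat diet through pregnancy and lactation that received 25 mg/kg of a grape seed procyanidin extract (GSPE) in low-fat condensed milk, and the HF animals from dams on that high-fat diet that received the milk alone. All pups also ate the diet of their mothers, and each group held 8 animals with 1 array per animal. The labels used here do not tie animals to dams or litters, so the p-values treat all 16 animals as independent.

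Mature red cells have no nucleus and little RNA, whereas reticulocytes, the young red cells just released into blood, still hold globin mRNA and the mRNAs of heme synthesis and the cell membrane. Ahsp protects free alpha globin until it pairs with a beta chain, Alas2 is the erythroid form of the first enzyme of heme synthesis, Slc4a1 is the band 3 anion exchanger and Epb42 is protein 4.2, which binds it at the membrane. RNA taken from a tissue includes that of the blood held in its vessels. In a whole tissue, fewer cells of a type and less RNA per cell cannot be told apart.

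GATA1 and KLF1, main regulators of red cell genes, are known to bind GATA motifs and CACCC boxes in promoters and enhancers. RefSeq promoter windows (build GRCr8, 250 bases before the gene start to 50 after it) were given for 5 of the 8 genes, Hba-a1, Hbb, Hbb-b1, Alas2 and Epb42. The windows of Hba-a1, Hbb and Alas2 are printed, since these genes carry the comparison of globins with heme synthesis that follows. They are written 5′ to 3′ on the gene's strand, with capitals marking 4 motifs. The motif of GATA factors was searched as AGATAA and, for its other common form, as TGATAA. The CACCC box was searched as CCNCNCCC, where N is any base, and the TATA box as TATAAA.
Hba-a1, GRCr8 chr10:15842531-15842830, minus strand: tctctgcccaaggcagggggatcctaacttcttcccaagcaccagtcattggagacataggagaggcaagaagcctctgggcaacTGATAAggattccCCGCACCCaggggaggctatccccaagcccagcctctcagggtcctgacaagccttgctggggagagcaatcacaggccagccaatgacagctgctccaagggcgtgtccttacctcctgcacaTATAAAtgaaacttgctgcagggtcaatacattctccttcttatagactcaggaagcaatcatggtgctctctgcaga
Hbb, GRCr8 chr1:167663672-167663971, minus strand: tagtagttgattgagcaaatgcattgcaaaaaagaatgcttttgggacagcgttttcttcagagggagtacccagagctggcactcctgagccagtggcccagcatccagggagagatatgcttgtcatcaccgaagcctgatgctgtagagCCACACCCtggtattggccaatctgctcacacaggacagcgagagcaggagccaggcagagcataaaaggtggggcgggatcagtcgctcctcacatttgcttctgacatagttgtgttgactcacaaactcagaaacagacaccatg
Alas2, GRCr8 chrX:22895200-22895499, plus strand: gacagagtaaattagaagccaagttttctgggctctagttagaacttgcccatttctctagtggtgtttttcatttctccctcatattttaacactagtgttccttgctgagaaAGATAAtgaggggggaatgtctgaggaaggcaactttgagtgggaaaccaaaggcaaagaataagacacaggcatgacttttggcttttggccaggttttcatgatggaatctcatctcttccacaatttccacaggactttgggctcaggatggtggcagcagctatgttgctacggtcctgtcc

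Both strands were searched, and no match overlapped another. The Hba-a1 window held TGATAA at 165 bases before the gene start, CCNCNCCC at 152 bases before it and TATAAA at 28 bases before it. The Hbb window held CCNCNCCC at 98 bases before the start, and the Hbb-b1 window, not printed, held it at 108 and TATAAA at 30 bases before the start. The Alas2 window held AGATAA at 136 bases before the start and no other capitalised motif. None of these motifs stood in the Epb42 window. Across 33469 RefSeq promoters, AGATAA stood in 11.6%, TGATAA in 9.03%, CCNCNCCC in 46.3% and TATAAA in 14.2%. CCAAT was also searched and is not capitalised. It stood in 37.5% of promoters. A match describes letters in these windows and says nothing of binding in fat.

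The arrays were 1-colour Agilent arrays on 4 slides, each slide holding 2 HFT and 2 HF animals. The HFT arrays always took positions 3 and 4 of a slide and the HF arrays positions 1 and 2; position and group cannot be told apart. The 75th percentile of signal ran from 753 to 1366, and 68.2% to 73.5% of probes stood well above background on an array. Levels below are log2 of the background-corrected signal minus the array's own 75th percentile. Adipoq, the gene of the fat hormone adiponectin, had a level of 6.85 ± 0.28 in HFT and 6.83 ± 0.20 in HF (SD, n = 8 each). On 7 of the 16 arrays a list of markers of epididymal epithelium, urothelium or liver lay more than 3 log2 units above its median array. The arrays were HFT 28 and HF 8 for epididymis, HFT 22, HFT 24 and HF 35 for urothelium, and HFT 36 and HF 10 for liver. Lcn5, an epididymal lipocalin, had levels of 4.12 on HFT 28, 3.42 on HFT 23 and 4.12 on HF 8. Upk3a, a urothelial membrane protein, had levels of 2.95 on HFT 22, 4.69 on HFT 24 and 4.69 on HF 35.

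Ahsp, the alpha globin chaperone, had a higher mean in HFT fat on both of its probes, by 1.58-fold and 1.69-fold, and neither passed adjustment over all probes. The probe A_43_P16887 had a lowest, median and highest level of -0.27, 0.18 and 0.83 in HFT, against -0.79, -0.58 and 0.18 in HF. All 8 HFT animals lay above the HF mean, 4 of them above every HF animal, and the groups overlapped. The difference was 0.66 (SE 0.17, 95% interval 0.30 to 1.02), with an exact permutation p of 0.00357 (two-sided, over all 12870 splits of the 16 animals). The probe A_64_P150726 ran at -1.09, -0.60 and 0.13 in HFT, against -1.70, -1.39 and -0.73 in HF. Its difference was 0.76 (SE 0.19, exact permutation p = 0.00264), and 5 HFT animals lay above every HF animal. The highest 4 animals on each probe were all HFT. The pair of probes correlated at r = 0.98 over the 16 animals (rho = 0.99, permutation p = 1e-05 for both, the smallest these permutations can give; adjusted p = 2e-05 over 4 such pairs). On the first probe the HFT minus HF difference within the 4 slides was 0.73, 0.40, 0.41 and 1.10.

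These exact permutation values, and those below, take each probe alone. They were added after seeing the data, on genes chosen with earlier results of these data known. None of the 12 probes passed an adjusted p of 0.05 in limma, and each had an adjusted p of 0.999994. The same holds for the whole array, where 0% of the 21808 probes kept passed. At an unadjusted limma p under 0.05, 247 kept probes (1.13%) were higher in HFT and 268 (1.23%) were lower. Of the 11 erythroid and platelet probes well above background on all 16 arrays, 10 were higher in HFT, 5 of these with an unadjusted p under 0.05, and none was lower at that p. Of the 19574 probes above background on all arrays, 1.04% were higher in HFT at that p and 1.07% lower, 42.8% had the higher mean in HFT (43.8% of all kept probes), and the median difference was -0.017. The median over the 11 probes was 0.30. All 8 HFT animals lay above the HF mean on 2 of the 11 probes, both of Ahsp, against 0.863% of the 19574. These probes measure few genes in the same animals and are not independent. The self-test on simulated arrays of this size called 77.9% of probes changed 2-fold and 59.4% of probes changed 1.5-fold. What share of such changes would be called on the real arrays was not tested.

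**Figure D1:**
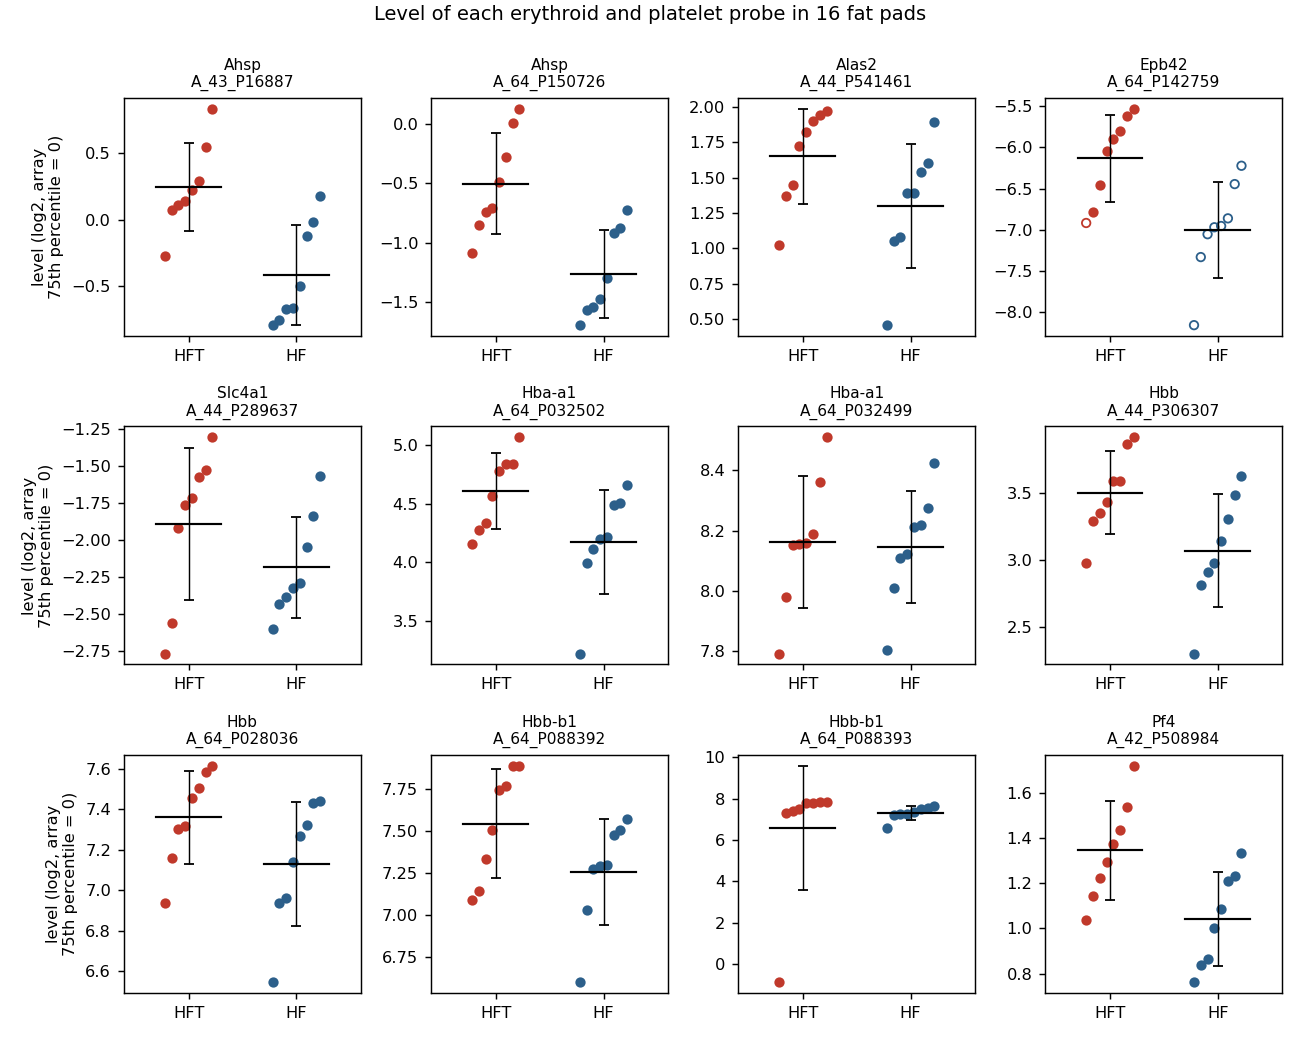
Level of each of the 12 probes in every animal (log2 relative to the array's 75th percentile), HFT left of HF, with the mean and SD of 8 animals a group. The groups overlap on every probe, and on both Ahsp panels the 8 HFT animals lie above the HF mean.

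Alas2, which commits the heme pathway in red cells, had a lowest, median and highest level of 1.02, 1.77 and 1.97 in HFT, against 0.46, 1.39 and 1.89 in HF. The groups overlapped, with HF 8 and HFT 28 as the lowest animals and HF 35 above 5 of the 8 HFT animals. The difference was 0.35 (SE 0.19, 95% interval -0.05 to 0.75, exact permutation p = 0.0928), 1.27-fold. Within slides it was 1.06, -0.05, 0.08 and 0.31. Without HF 8, on the first slide, the difference was 0.23 (exact permutation p = 0.183). Without HFT 28 it was 0.44 (exact permutation p = 0.0303).

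Slc4a1, the band 3 anion exchanger, ran at -2.77, -1.74 and -1.31 in HFT, against -2.60, -2.31 and -1.57 in HF. The difference of 0.29 (SE 0.21, exact permutation p = 0.197) did not exceed the spread between animals. HFT 28 was the lowest animal on this probe, and without it the difference was 0.42 (exact permutation p = 0.0513). Without HF 8 the difference was 0.23 (exact permutation p = 0.311). Without the 6 arrays on which Lcn5 or Upk3a read above 0, over 4 HFT and 6 HF animals, it was 0.49 (exact permutation p = 0.0429).

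Epb42, protein 4.2, had very low signal. Its probe stood well above background on 7 of 8 HFT arrays and on 0 of 8 HF arrays, so HF fat has only a bound. Its measured level was -6.92, -5.97 and -5.53 (lowest, median, highest) in HFT, against -8.16, -6.96 and -6.22 in HF. With each HF array held at the lowest signal well above background or its own signal, whichever was higher, the mean in HFT was at least 1.77-fold higher on the processed signal. That floor raised HF 8 alone, and the fold is no bound under other background corrections. Epb42 entered the test only through its HFT arrays and had to differ, and its measured difference was 0.87. With normexp background correction the difference was -0.02, and in the authors' deposited table it was 0.29.

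The globins depended on the probe. Hba-a1 and Hbb each had a probe of high signal and a probe of lower signal; the probe with lower signal differed between groups by 0.43 for both genes, whereas the Hba-a1 probe of high signal differed by 0.02. Signals of different probes do not compare as amounts of mRNA, and closely related globin transcripts can cross-hybridise. The specificity of each probe was not tested.

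On the brightest probe, A_64_P032499 for Hba-a1, the lowest, median and highest level was 7.79, 8.16 and 8.51 in HFT, against 7.80, 8.17 and 8.42 in HF. These ranges nearly coincided, and the difference was 0.02 (SE 0.10, 95% interval -0.20 to 0.23, exact permutation p = 0.883). Its signal spanned 1.77-fold over 16 arrays and no spot was saturated.

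On the Hba-a1 probe of lower signal, A_64_P032502, the levels were 4.15, 4.67 and 5.07 in HFT, against 3.22, 4.21 and 4.66 in HF. The difference was 0.43 (SE 0.19, 95% interval 0.04 to 0.83, exact permutation p = 0.0356), or 1.35-fold, and its signal spanned 4.85-fold over the arrays. HF 8, at 3.22, was the lowest animal, and the next HF animal stood at 3.99. Without HF 8 the difference was 0.30 (exact permutation p = 0.0724).

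Hbb, a beta globin gene, was read by 2 probes as well. Its probe A_44_P306307, of lower signal, ran at 2.97, 3.51 and 3.92 in HFT, against 2.30, 3.06 and 3.62 in HF. The difference was 0.43 (SE 0.18, 95% interval 0.06 to 0.81, exact permutation p = 0.0334). Without HF 8, the lowest animal, it was 0.32 (exact permutation p = 0.0659). The Hbb probe of high signal, A_64_P028036, ran at 6.94, 7.39 and 7.62 in HFT, against 6.55, 7.20 and 7.44 in HF. It differed by 0.23 (SE 0.13, exact permutation p = 0.106), or 0.15 without HF 8.

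Hbb-b1, another beta globin gene, also had a pair of probes. On A_64_P088392 the levels were 7.09, 7.62 and 7.89 in HFT, against 6.60, 7.29 and 7.57 in HF. The difference was 0.29 (SE 0.15, exact permutation p = 0.0912). On A_64_P088393 the lowest, median and highest level was -0.86, 7.65 and 7.86 in HFT, against 6.59, 7.32 and 7.65 in HF. The difference of -0.73 (95% interval -2.85 to 1.40, exact permutation p = 0.986) rested on HFT 28, where 1 of the 2 spots of this probe had a signal of 2.96 and the other a signal of 190231. Without the spot of 2.96 the difference was 0.27.

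**Figure D2:**
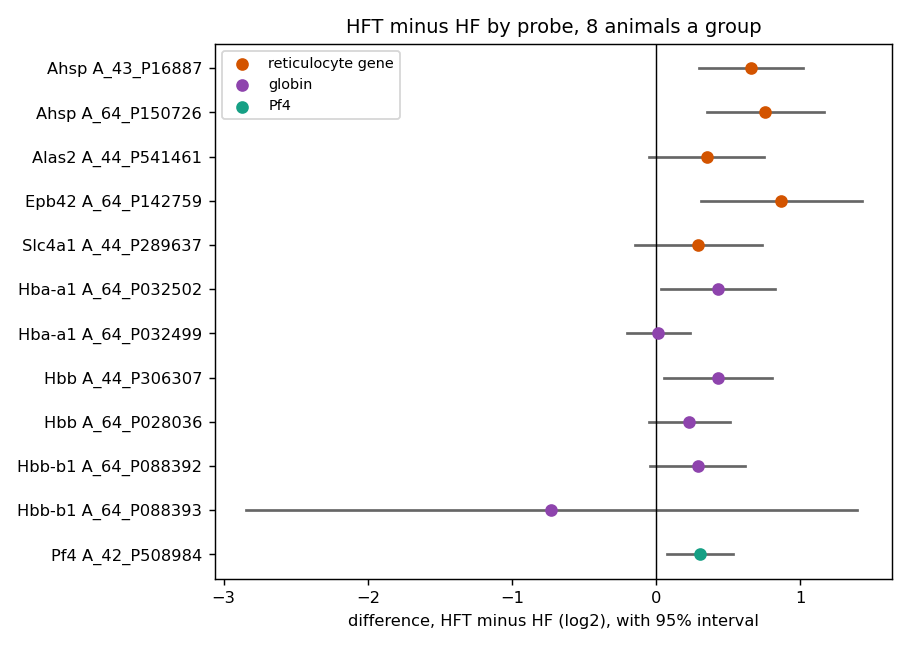
HFT minus HF for each probe on the log2 scale, with the 95% interval of the limma fit (8 animals a group). The 0.66 and 0.76 of Ahsp lie right of 0, the 0.02 of the brightest Hba-a1 probe sits on 0, and the wide interval of the second Hbb-b1 probe belongs to the probe with the spot of 2.96 on HFT 28.

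To compare the reticulocyte genes with the globins within each animal, the levels of the genes of a group were averaged. Each contrast below was then centred on its median over the 16 animals. Ahsp, Alas2 and Slc4a1 together minus the 3 globin genes, on their brightest probes, averaged 0.19 ± 0.20 in HFT and -0.06 ± 0.16 in HF (SD, n = 8 each), a difference of 0.26 (SE 0.09). Against the Hba-a1 and Hbb probes of lower signal instead, the same reticulocyte mean averaged -0.03 ± 0.16 in HFT and -0.03 ± 0.20 in HF, a difference of 0.0020 (SE 0.09). The size of the gap thus depended on which globin probes were used. Epb42, kept through HFT arrays alone, was left out of these means. The Hba-a1 probe of lower signal minus the brightest Hba-a1 probe averaged 0.17 ± 0.23 in HFT and -0.25 ± 0.31 in HF, a difference of 0.42 (SE 0.14). For Hbb the same contrast differed by 0.20 (SE 0.09). No p is given for these means over genes chosen with results known.

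The spread over the 16 animals also differed between probes. The brightest Hba-a1 probe had an SD of 0.20, and the Hba-a1 probe of lower signal 0.44. For Hbb the SD was 0.29 on the probe of high signal and 0.42 on that of lower signal. The Hbb-b1 probe A_64_P088392, at a mean level of 7.40, had an SD of 0.34. Over the array, the 48 probes at a level of 7 or more had a median SD of 0.19, and the 846 probes with levels from 4 to 6 one of 0.18. Of 4 genes with a probe at a level of 7 or more and another at least 2 log2 units lower, Hbb, Hba-a1 and Ppia had the smaller SD on the brighter probe. Between probes Hbb gave r = 0.90 and Hba-a1 r = 0.66 (permutation p = 1e-05 and 0.00503). In Ppia, a cyclophilin used as a reference gene, the differences between groups were -0.01 on the brighter and 0.0064 on the dimmer probe.

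**Figure D3:**
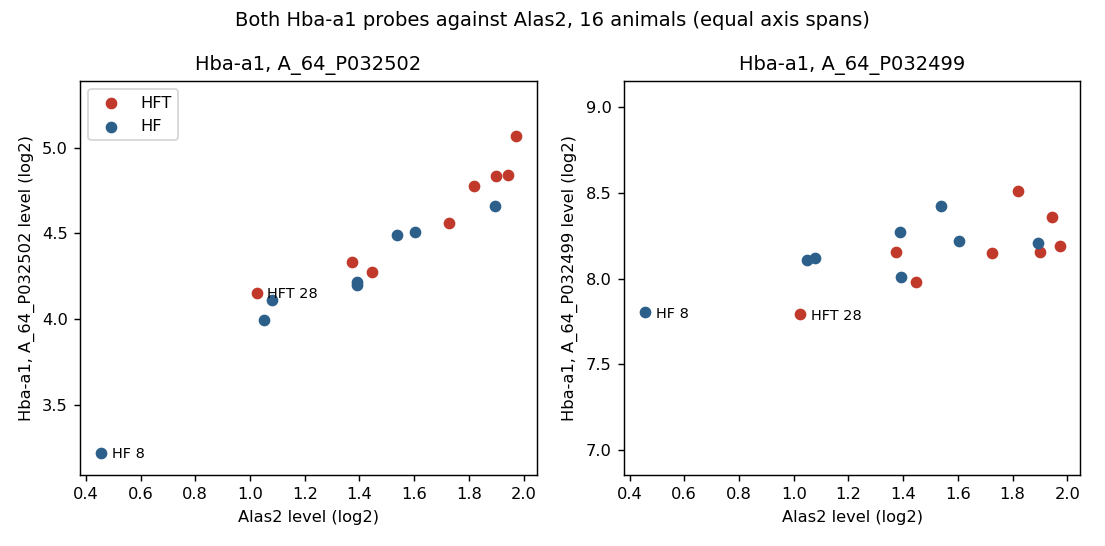
The Hba-a1 probe of lower signal (left) and the brightest Hba-a1 probe (right) against Alas2, log2 levels of 16 animals, HFT and HF marked apart, with axes of equal span. The animals follow Alas2 more closely on the left (r = 0.97) than on the right (r = 0.69).

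The erythroid genes moved together from animal to animal. All 15 pairs of the 6 erythroid genes other than Epb42 correlated above 0 over the 16 animals (r between 0.47 and 0.95, median 0.70), and 13 of the 15 passed an adjusted permutation p of 0.05, with adjustment over the 28 pairs of all 8 genes and 1 probe per gene. The 6 pairs with Epb42 gave r between 0.57 and 0.88; Epb42 was below background on every HF array and kept through HFT arrays, so these values carry that split and are given as a description only. The levels share each array's 75th percentile and RNA sample. Hbb-b1 and Alas2 gave r = 0.95 and rho = 0.93 (permutation p = 1e-05, the smallest the permutations can give; adjusted p = 0.00014 and 9.33e-05). Without HF 8 and HFT 27, the animals farthest from the median of Hbb-b1, r was 0.91, and it was 0.94 within HFT, 0.95 within HF and 0.95 from deviations within slides. Alas2 and Slc4a1 gave r = 0.79 and rho = 0.86 (permutation p = 0.00021 and 4e-05, adjusted p = 0.000735 and 0.00028). Without HF 8 and HFT 36 it was r = 0.78, and it was 0.92 within HFT and 0.67 within HF.

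The 2 lowest of the 15 r values were those of the brightest Hba-a1 probe with Ahsp and Slc4a1. It gave r = 0.47 and rho = 0.45 with Ahsp (permutation p = 0.0661 and 0.0853, adjusted p = 0.0881 and 0.104), and r = 0.45 without HFT 28 and HFT 26. With Slc4a1 it gave r = 0.53 and rho = 0.56 (permutation p = 0.0363 and 0.0256, adjusted p = 0.0508 and 0.0378). Without HFT 28 and HFT 26 it was r = 0.29, so the relation rested on those animals. With Alas2 it gave r = 0.69 and rho = 0.65 (permutation p = 0.00315 and 0.00823, adjusted p = 0.0063 and 0.0128), and r = 0.66 without the same animals.

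The Hba-a1 probe of lower signal and Alas2 gave r = 0.97 and rho = 0.97 (permutation p = 1e-05 for both, the smallest possible; adjusted p = 2.2e-05 and 0.00011 over 11 pairs with the 2 globin probes of lower signal). It was r = 0.96 without HF 8 and HFT 36, 0.95 within HFT and 0.98 within HF. With Slc4a1 this probe gave r = 0.76 and with Ahsp 0.68. Ahsp gave r = 0.64 and rho = 0.71 with Alas2 (permutation p = 0.0074 and 0.00241, adjusted p = 0.0122 and 0.00482), and r = 0.82 within HFT and 0.32 within HF. The Ahsp minus Alas2 difference between groups was 0.31 (SE 0.18), within 2 SE of 0. Without the 7 arrays that stood apart, which leaves 9 animals, 10 of the 28 pairs passed.

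**Figure D4:**
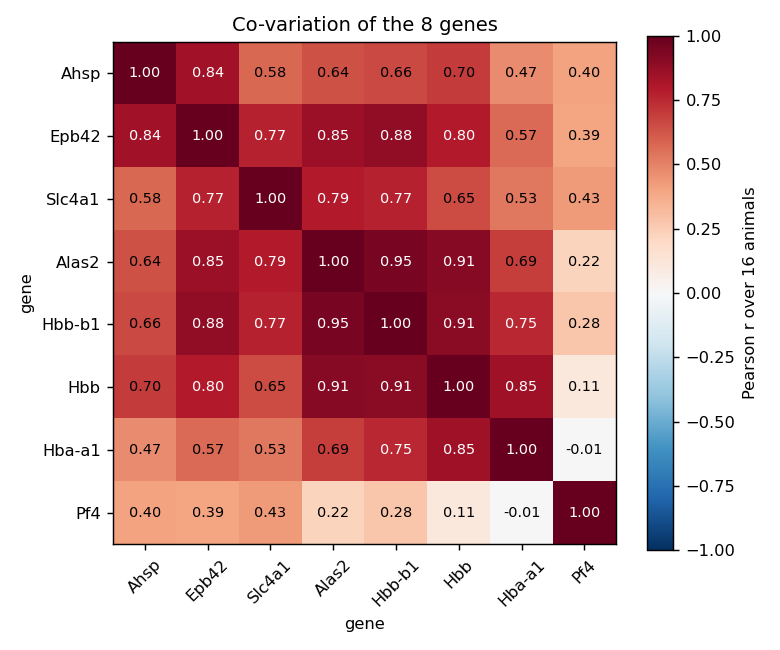
Pearson r over 16 animals for every pair of the 8 genes, 1 probe per gene. The 15 erythroid pairs without Epb42 run from 0.47 to 0.95, the 6 with it from 0.57 to 0.88, and the row and column of Pf4 run from -0.01 to 0.43.

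Pf4, which platelets store and release, had a higher mean in HFT on its probe of 10 spots, and did not pass adjustment over all probes. The lowest, median and highest level was 1.04, 1.34 and 1.72 in HFT, against 0.76, 1.04 and 1.33 in HF. The difference was 0.30 (SE 0.11, 95% interval 0.08 to 0.53, exact permutation p = 0.0141), 1.24-fold. Of the HFT animals 7 of 8 lay above the HF mean and 4 above every HF animal, and within slides the difference was 0.19, 0.40, 0.05 and 0.57. Its 7 correlations with the erythroid genes over animals ran from -0.01 to 0.43, and none passed an adjusted permutation p of 0.05. The highest, with Slc4a1, was r = 0.43 and rho = 0.46 (permutation p = 0.0984 and 0.0719, adjusted p = 0.125 and 0.0959), r = 0.58 without HFT 28 and HFT 22. The 7 values ran from 0.33 to 0.51 within HFT and from -0.63 to 0.20 within HF. Without the 7 arrays that stood apart, over 9 animals, those with the 6 genes other than Epb42 ran from 0.31 to 0.72. Without the 6 arrays on which Lcn5 or Upk3a read above 0, the difference between groups was 0.47.

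Pf4 correlated with macrophage genes. Of 16 macrophage genes 13 passed an adjusted permutation p of 0.05 with Pf4, all with r above 0, among 31 relations with macrophage and platelet genes, and the median r over the 16 was 0.69. Cd163, the haemoglobin scavenger receptor of macrophages, gave r = 0.84 and rho = 0.91 (permutation p = 2e-05 and 1e-05, adjusted p = 0.00062 and 0.00031). Without HFT 27 and HF 10 it was r = 0.77, and it was 0.95 within HFT and 0.70 within HF. Cd68, a macrophage lysosomal protein, gave r = 0.83 and rho = 0.80 (permutation p = 0.00011 and 0.00041, adjusted p = 0.00093 and 0.00212), with r = 0.76 without the same animals. Mertk, a receptor for the uptake of dead cells, gave r = -0.31.

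The 15 platelet genes gave a median r of 0.15 with Pf4. Of these, 12 stood well above background on all 16 arrays, as did all 16 macrophage genes. Mean levels in HFT ran from -6.54 (Ppbp) to -0.98 (Ptgs1) for the platelet genes. For the macrophage genes they ran from -4.33 (Mertk) to 4.59 (C1qb). Whether the lower signal of the platelet probes has a part in their lower r was not tested. Tbxas1, thromboxane synthase, which macrophages also express, gave r = 0.85 and rho = 0.85 (permutation p = 6e-05 and 9e-05, adjusted p = 0.00093 for both), with r = 0.75 without HFT 27 and HF 10. Ptgs1, cyclooxygenase 1, gave r = -0.57 and rho = -0.51 (permutation p = 0.0211 and 0.0468, adjusted p = 0.0437 and 0.0853), with r = -0.52 without those animals. Ppbp, the platelet basic protein that sits beside Pf4 in platelet granules, stood well above background on 6 HFT and 6 HF arrays and gave r = 0.17. Gp1ba, the platelet receptor for von Willebrand factor, was above background on 0 arrays. The difference between the macrophage and the platelet correlations was not tested.

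**Figure D5:**
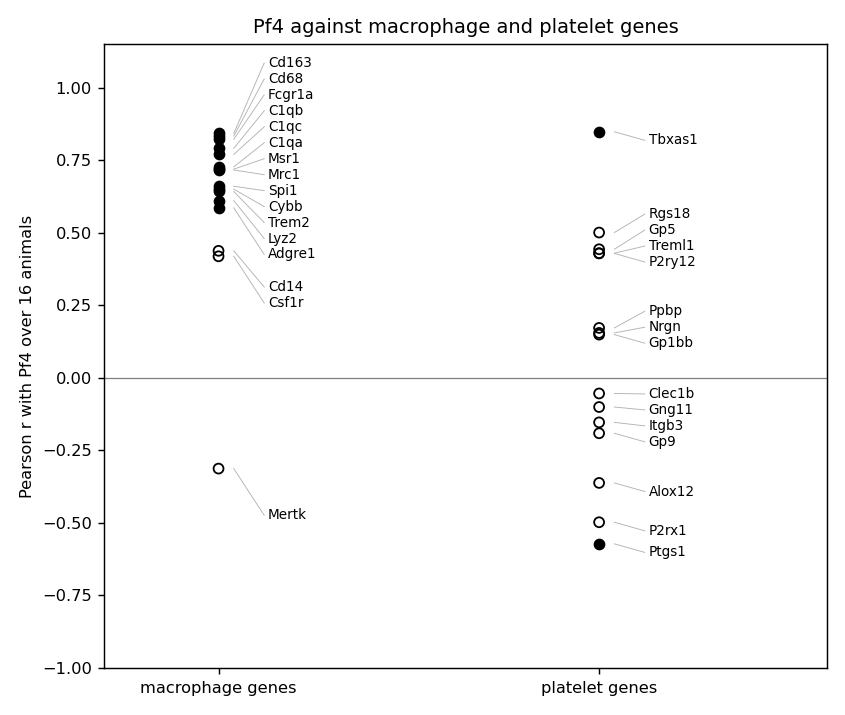
Pearson r with Pf4 over 16 animals for 16 macrophage genes and 15 platelet genes, each point a gene. The macrophage genes have a median of 0.69 and the platelet genes a median of 0.15. Mean levels in HFT run from -4.33 to 4.59 for the macrophage genes and from -6.54 to -0.98 for the platelet genes.

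Other genes of red cells were read from lists. Counts here are over genes well above background on all 16 arrays. Of the 19574 probes above background on all arrays, 42.8% had the higher mean in HFT. At an unadjusted limma p under 0.05, 1.04% of them were higher and 1.07% lower. Genes of a list were read in the same animals and are not independent. Of 16 genes of the erythroid program, 12 were higher in HFT and 4 lower, with a median difference of 0.05. At that p 4 of the 16 were higher, none past adjustment. Hemgn, a nuclear protein of erythroid precursors, averaged -4.28 ± 0.53 in HFT and -4.99 ± 0.33 in HF (SD, n = 8 each), a difference of 0.70 (SE 0.21). Trim10, a ring-finger protein of red cell differentiation, is not in that count. It stood well above background on 8 HFT and 2 HF arrays, was kept through HFT alone, and differed by 0.53 (SE 0.15). Nfe2, a transcription factor of erythroid cells and megakaryocytes, differed by 0.41 (SE 0.13). Bpgm, which makes 2,3-bisphosphoglycerate in red cells, differed by 0.25 (SE 0.10). Gata1, the master regulator of the lineage, stood well above background on 4 HFT and 2 HF arrays.

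Red cell membrane genes split. Of 8 genes, 4 were higher in HFT and 4 lower, with a median difference of 0.14, and 2 were higher and 1 lower at an unadjusted limma p under 0.05. Kel, a blood group antigen, differed by 0.86 (SE 0.31) and Rhd, another, by 0.40 (SE 0.18). Xk, the membrane protein that carries Kel, differed by -0.36 (SE 0.15). Add2, a cytoskeletal adducin, differed by 0.33 (SE 0.17). None passed adjustment over all probes.

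Of 19 genes of heme synthesis and iron handling, 14 were higher in HFT and 5 lower, with a median difference of 0.04 and none at an unadjusted limma p under 0.05. Of 4 other globins, 3 were higher and 1 lower. Hba-a3, another alpha globin gene, ran at 0.27, 1.34 and 1.59 in HFT (lowest, median, highest), against -0.23, 0.48 and 1.13 in HF, a difference of 0.64 (SE 0.21). Hbe2, an embryonic-type beta globin, differed by 0.35 (SE 0.18).

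Ahsp was set against 28 further genes of the program and membrane lists over animals, and 6 passed an adjusted permutation p of 0.05. Hemgn gave r = 0.89 and rho = 0.88 (permutation p = 1e-05 and 5e-05, adjusted p = 0.00028 and 0.0014), with r = 0.87 without HF 11 and HFT 27. Kel gave r = 0.76 and rho = 0.74 (permutation p = 0.00073 and 0.00167, adjusted p = 0.0102 and 0.0117), with r = 0.64 without them. Nfe2, Rhd and Add2 gave r between 0.65 and 0.67. Trim10, kept through HFT, gave 0.69. The median r over the erythroid program list was 0.29 and over the membrane list -0.03.

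Among cells of blood and vessel, 15 of 16 macrophage genes were higher in HFT, with a median difference of 0.31 and 6 at an unadjusted limma p under 0.05. Over all probes above background on every array, 42.8% were higher, 1.04% were higher at that p and 1.07% lower. Cd68 averaged 0.72 ± 0.26 in HFT and 0.37 ± 0.29 in HF (SD, n = 8 each), a difference of 0.35 (SE 0.13). The median level of the macrophage list, relative to its middle animal, ran from -0.27 to 0.70 in HFT and from -0.49 to 0.09 in HF. Of 12 platelet genes, 6 were higher and 6 lower, with a median difference of 0.04 and none at that p. Itgb3, the platelet integrin beta chain, stood well above background on 5 HFT and 8 HF arrays and is not in that count; it differed by -0.49 (SE 0.21). All 10 endothelial genes were lower in HFT, with a median difference of -0.20, none at an unadjusted limma p under 0.05, and Pecam1 differed by -0.13 (SE 0.11). The 4 neutrophil genes were also all lower, with a median of -0.33, and none reached that p. All 6 lymphocyte genes were higher, with a median of 0.15, and all 10 liver genes, with a median of 0.46, and none reached that p in either list. Of 9 fat cell genes 4 were higher and 5 lower, and 1 was lower at that p, Retn, the fat hormone resistin, at -0.40 (SE 0.16). Of 4 epididymal genes 1 was higher and 3 lower, of 3 urothelial genes 1 was higher and 2 lower, and none reached that p. No gene of these lists passed adjustment over all probes. Whether any of these lists has a part in the differences of the erythroid genes was not tested.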

How the data were processed

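Each animal's fat RNA was labelled with Cy3 (One Color Low Input Quick Amp kit, per the labels) and hybridised to a 1-colour Agilent array. Per the file headers, Feature Extraction 10.7.3.1 made the spot intensities and subtracted the background, and it also set the marks for spots standing well above background; nothing was normalized between arrays. A second deposited table holds the authors' log2 values. Its normalization is not stated in what was given here; every column has the same maximum and a median between 7.33 and 7.36, and it served as an alternative.

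Intensities were turned into log2 levels relative to the 75th percentile of the array's 58717 non-control spots. Outlier spots marked by the scanner software were dropped and the spots of a probe averaged; 23 probes without a usable spot on some array were dropped. A probe entered the test if 4 or more arrays of either group read it well above background, as 21808 did. HFT was set against HF with limma 3.58.1 (lmFit and eBayes, R 4.3.3) without covariates, and p-values were adjusted by Benjamini-Hochberg over all tested probes at a threshold of 0.05. Single probes also got a two-sided exact permutation test, added after seeing the data, as were list counts over genes above background on all 16 arrays. Correlations over animals used 100000 permutations. On simulated data the limma step (5 runs) called a mean of 6.8 unchanged probes. Probes were named through RefSeq accessions (GRCr8); the array annotation is older. The probe of highest mean signal stood for a gene in lists and correlations. Normexp (offset 50) used median spot intensities, because no mean spot intensity is in the files.

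All probes of the 8 genes are named whatever their values. Other names are up to 4 genes of smallest unadjusted p per list, the 5 genes most correlated with Alas2, Hba-a1 and Pf4, and fixed tissue markers. Of the genes this rule names, 1 is not reported here. Mertk, Ppbp, Gp1ba, Gata1, Cd163, Hbb-bs and Ppia were named after their values were seen. The members and lists were chosen with earlier results of these data known. The number of arrays limits the precision.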

Additional observations from a re-analysis of the deposited data

Results flagged for a closer look

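In 3 of the 24 groups of 8 values (12 probes in HFT and HF), 1 animal stood further from the rest than Dixon's critical value allows. Chance alone flags about 1 group in 20. On the Hbb-b1 probe A_64_P088393, HFT 28 had a level of -0.864, where the next HFT animal had 7.30. Of its 2 spots, 1 had a processed signal of 2.96 and the other 190231. On the same probe HF 8 had the lowest HF level, 6.59, where the next HF animal had 7.20. On the Hba-a1 probe A_64_P032502, HF 8 had a level of 3.22, where the next HF animal had 3.99.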

How the results depend on the processing

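The count of probes past an adjusted limma p of 0.05 was 0 under all 28 alternatives, with 398 to 1206 probes at an unadjusted p under 0.05, against 515 as reported. Of 335 recomputed member differences, 9 changed sign and none passed an adjusted p of 0.05. Epb42 was -0.024 with normexp, 0.29 in the authors' deposited table. The Hbb-b1 probe A_64_P088393, at -0.73 as reported, was 0.30 without the arrays that stand apart, 0.33 without the arrays on which Lcn5 or Upk3a read above 0, 0.34 without HFT 28 and 0.27 without spots over 3 log2 units below the brightest spot of their probe, the last setting and the Lcn5 or Upk3a one being chosen after seeing the data, as was slide block with array weights. The brightest Hba-a1 probe was -0.034 without HF 8, -0.035 without HFT 26, -0.0045 without HF 14 and -0.013 without HFT 27. Leaving out 1 animal in turn gave -0.035 to 0.068 for the brightest Hba-a1 probe, -0.91 to 0.34 for the second Hbb-b1 probe, 0.58 to 0.74 for the first Ahsp probe, 0.23 to 0.44 for Alas2, 0.30 to 0.50 for the Hba-a1 probe of lower signal and 0.25 to 0.35 for Pf4. Without the Lcn5 or Upk3a arrays, Slc4a1 was 0.49 and Pf4 0.47. The unadjusted p of both Ahsp probes and of Pf4 was under 0.05 in all 29 settings, that of Alas2 in 6 and that of Slc4a1 in 4, among them without HFT 28. Of the 28 pairs of genes, 19 passed as reported (13 of the 15 erythroid pairs without Epb42 and all 6 with it), 10 without the arrays that stand apart (9 animals are left), 15 with normexp and 20 in the authors' deposited table. No paired analysis was possible because the groups share no replicate numbers; a slide block changed no call. Epb42 has no value where only probes above background on all 16 arrays are kept. Signal near background limits Epb42, and litters could not enter the fit.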

Other observations

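Genes most like each of 3 anchors over the 16 animals were drawn from 11583 genes, as a description with no test. For Alas2 they included Hbe2 (r = 0.98), an embryonic-type beta globin, Vom2r12 (0.90), a vomeronasal receptor, Rnls (0.89), renalase, and Or3a4 (0.85), an olfactory receptor, where the median gene had r = 0.11. For the brightest Hba-a1 probe they were Scd (0.92), the stearoyl-CoA desaturase of fat cells, Trim58 (0.84), a ubiquitin ligase of late erythroid cells, Stx6 (0.82), a syntaxin, Rbp4 (0.81), the retinol carrier, and Mknk2 (0.81), a kinase, where the median gene had 0.16. Scd ran at 7.81, 8.09 and 8.57 (lowest, median, highest) in HFT, against 7.91, 8.26 and 8.33 in HF. For Pf4 they were Ptpn6 (0.87), a phosphatase of blood cells, Itgb2 (0.86), a leukocyte integrin, Lst1 (0.85), Fcer1g (0.85), an Fc receptor chain, and Tbxas1 (0.85), where the median gene had 0.02.

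Hbb-bs, a further beta globin gene, gave r = 0.34 with Alas2, where Ahsp, Slc4a1 and the 3 globin genes described above gave 0.64 to 0.95. Its level was 4.99 on HFT 26, 5.09 on HFT 28 and 6.61 on HFT 27, against 4.66 on HF 35 and 5.87 on HF 14. On HFT 28, 23 spots of probes at or above a level of 0 lay over 3 log2 units below the brightest spot of their probe, where no other array had more than 4. The cause was not tested.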
